A study of Mus musculus with 6 samples.

Results

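The 9 genes described here mark the bile duct and liver progenitor fates: Sox9, Sox4, Krt7, Krt19, Krt23, Epcam, Spp1, Cd24a and Prom1. They were picked by gene symbol, but with earlier results of these data known. All 9 were found among the 29667 genes of the deposited read count table, and all 9 passed the filter on low counts, together with 14843 genes in all. The table comes from mRNA sequencing of livers from 3 wild-type (WT) mice, which carried floxed Prox1 without Cre (Prox1f/f), and 3 knockout mice (Alb-Cre; Prox1f/f, here Prox1-cKO), so both groups carried the floxed alleles. The albumin promoter drives Cre in hepatocytes and, since it is already active in the fetal liver, can also reach part of the bile duct cells. The sources used here do not give the age, sex or any treatment of the animals.

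Hepatocytes and cholangiocytes, the cells that line bile ducts, both arise from hepatoblasts. In the mouse, Notch and TGF-beta signals near the portal vein switch on Sox9 and then Sox4, transcription factors with a HMG box that together shape the ducts, while PROX1 is known to favour the hepatocyte fate and to hold back the biliary one in the developing liver. Krt7 and Krt19 encode the keratins that set duct cells apart from hepatocytes, which build their filaments from Krt8 and Krt18 alone. Epcam, Prom1 and Cd24a encode surface proteins of duct and progenitor cells, and Spp1 encodes osteopontin, a secreted matrix protein.

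RNA of WT replicates 1 to 3 and Prox1-cKO replicates 1 to 3 gave 18066205 to 20537091 reads in genes. The WT libraries had a read in 22055 to 23252 genes and the Prox1-cKO libraries in 20540 to 20864. Levels are given as CPM, the read count over the library size in megareads after TMM scaling. The TMM factors were 1.09 to 1.20 (WT) and 0.842 to 0.893 (Prox1-cKO). Prox1 itself fell from 708 ± 141 to 188 ± 20.9 CPM (SD, n = 3 each). WT replicate 3 stood apart from the other WT libraries in genes of dividing cells, with a summed level over 16 such genes of 165 CPM against 332 and 289 in WT replicates 1 and 2, and in 16 macrophage genes, with 848 CPM against 1950 and 1853.

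The stretches before the start sites of 3 of the 9 genes are shown first, because these genes stand at the ends of the range described below: Sox4 had the largest relative loss, Spp1 the highest level and Krt23 no loss. The sequences are those of RefSeq on GRCm38.p6, where 6 of the 9 genes had an entry, and each is the run of 250 bases that ends just before the annotated start, read 5′ to 3′ along the gene. Capitals mark matches, on either strand, to the CCAAT box (CCAAT), the TATA box (TATAAA), the core motifs of TEAD (GGAATG), RBPJ (TGGGAA) and SOX factors (ACAATG or ACAAAG) and the nuclear receptor half-site (AGGTCA).
Sox4, chr13:28953700-28953949, minus strand: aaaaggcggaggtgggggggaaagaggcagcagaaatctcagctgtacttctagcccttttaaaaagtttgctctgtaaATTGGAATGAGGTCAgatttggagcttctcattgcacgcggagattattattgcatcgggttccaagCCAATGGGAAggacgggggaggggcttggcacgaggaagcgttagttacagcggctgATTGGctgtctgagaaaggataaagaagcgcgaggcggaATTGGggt
Spp1, chr5:104434861-104435110, plus strand: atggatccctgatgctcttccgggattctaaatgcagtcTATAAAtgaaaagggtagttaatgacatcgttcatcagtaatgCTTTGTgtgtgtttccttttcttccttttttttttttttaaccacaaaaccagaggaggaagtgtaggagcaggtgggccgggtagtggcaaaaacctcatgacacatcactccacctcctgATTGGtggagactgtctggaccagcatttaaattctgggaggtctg
Krt23, chr11:99493121-99493370, minus strand: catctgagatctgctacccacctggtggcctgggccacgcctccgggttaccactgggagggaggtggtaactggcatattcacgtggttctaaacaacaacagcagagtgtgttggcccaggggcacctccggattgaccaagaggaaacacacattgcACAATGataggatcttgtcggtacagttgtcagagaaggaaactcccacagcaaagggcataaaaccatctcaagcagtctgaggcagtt

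The Sox4 stretch held 4 CCAAT matches, which began 171, 104, 47 and 8 bases before the RefSeq start. It also held a TEAD match at 168 bases and a nuclear receptor half-site at 162 bases, both in 1 run with the first CCAAT match, and an RBPJ match at 100 bases that overlaps the second. In another annotation, GENCODE M21, Sox4 reaches to 28953713 and Krt23 to 99493137. By these positions the last bases of both stretches, with the Sox4 CCAAT match at 8 bases, lie inside the genes. Among all 32851 promoter stretches of this length, 33.8% held a CCAAT match, 12.6% a TEAD match, 21.6% an RBPJ match and 14% a half-site. The Spp1 stretch held a CCAAT match 46 bases before the start, a TATA match at 211 bases and a SOX match (ACAAAG) at 168 bases, and the Krt23 stretch a single SOX match (ACAATG) at 90 bases. Spp1 had a second annotated start, whose stretch is not shown (chr5:104435942-104436191). It held no CCAAT or TATA match and a SOX match (ACAAAG) at 243 bases. The TATA motif was found in 12.4% of all stretches, ACAATG in 10.7% and ACAAAG in 16.5%. These are matches of letters, and nothing about the binding of a factor was measured.

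In Prox1-cKO livers, 6 of the 9 genes fell and none rose (no gene was higher at an unadjusted p under 0.05 either, and 0 rose with DESeq2). Sox4, Prom1, Spp1, Cd24a and Krt19 fell to between 10.1% and 28.9% of their WT levels, Sox9 fell to 67.4%, and the tests of Krt7, Epcam and Krt23 did not pass. The 6 of 9 genes that fell (66.7%) compare with 20.2% of all 14843 genes called lower, and the 0 that rose with 14.1% called higher, at an adjusted p under 0.05 in edgeR's quasi-likelihood test. In 7 of the 9 genes every Prox1-cKO library lay below every WT library, as it did in 26.6% of all genes tested. The median log2 fold change of the 9 genes, Prox1-cKO over WT, was −1.79, against −0.02 over all genes tested. Without WT replicate 3, 7 of the 9 genes were called lower, and without Prox1-cKO replicate 1, 4 were. In such bulk samples, fewer cells of a type and less RNA per cell cannot be told apart.

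**Figure D1:**
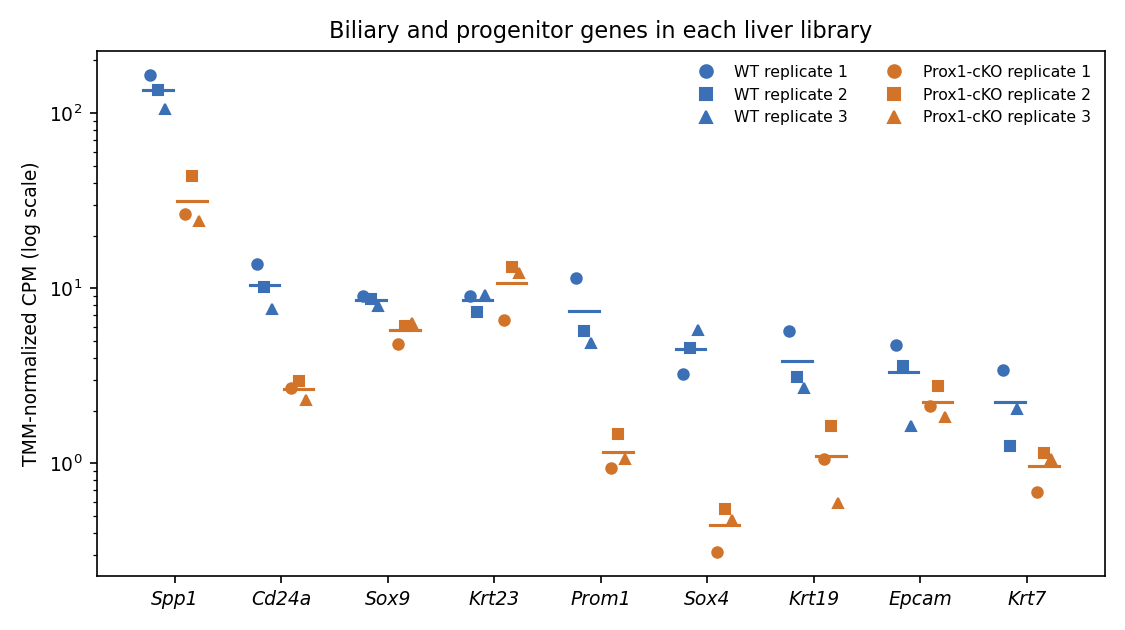
Level of each of the 9 genes in TMM-normalized CPM on a log scale, with 1 point per library (blue, WT; orange, Prox1-cKO; circle, square and triangle for replicates 1, 2 and 3) and a line at each group's mean. The groups are apart for 7 genes and overlap for Krt23 and Epcam.

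The transcription factors came first. Sox4, a SoxC factor that acts with SOX9 in mouse bile duct formation, was 3.22, 4.55 and 5.74 CPM in WT and 0.312, 0.546 and 0.473 CPM in Prox1-cKO. No Prox1-cKO library came near the lowest WT library, and the Prox1-cKO levels rest on 5, 10 and 8 reads. Its log2 fold change was −3.31 (standard error 0.348, adjusted p = 0.000605), or 9.93-fold lower. With limma on log2(CPM + 1), which compresses genes with few reads, it was −1.91. The gene (ENSMUSG00000076431) lies on chromosome 13 from 28948919 to 28953713 of GRCm38 (GENCODE M21), and 2616 of its 4795 exonic bases are shared with Gm26735 on the other strand. The sources used here do not say whether reads were counted by strand, so reads of this shared part may have been left out or may come from either gene.

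Sox9, a SoxE factor and one of the first genes to mark the biliary lineage, was 9.08, 8.63 and 7.93 CPM in WT and 4.81, 6.12 and 6.33 CPM in Prox1-cKO. The groups did not overlap, but they lay close together. Its log2 fold change was −0.57 (standard error 0.174, adjusted p = 0.0368), and this call was lost in 7 of 15 other settings (adjusted p = 0.0548 to 0.120), among them those without WT replicate 1 or 2 or without any 1 of the Prox1-cKO replicates. The gene lies on chromosome 11 from 112782224 to 112787760 and shares no exonic base with another gene. Within each library, Sox4 had 0.354, 0.527 and 0.724 reads per Sox9 read in WT and 0.0649, 0.0893 and 0.0748 in Prox1-cKO, a difference of −2.76 in the mean log2 ratio. This ratio does not depend on scaling, and its p in the exact two-sided permutation test was 0.1, the smallest that 3 against 3 libraries allow, or 0.225 adjusted over the 9 ratios computed.

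Relatives of both factors were tested too. Sox13 was called lower, with a log2 fold change of −0.69, and Sox5 higher, with 0.72, but Sox13 lost its call when WT replicate 1 or Prox1-cKO replicate 1 or 2 was left out (adjusted p = 0.0539, 0.0798 and 0.0878), and Sox5 lost its call with any 1 library but WT replicate 3 left out (0.0509 to 0.0988) and with library totals alone (0.207). Sox7, an endothelial factor, was at −0.57 and did not pass (adjusted p = 0.0954), though it did with library totals alone (0.0159).

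Among the keratins, the levels parted. Krt19, the type I keratin used most often to mark bile ducts, was 5.69, 3.11 and 2.69 CPM in WT and 1.06, 1.64 and 0.592 CPM in Prox1-cKO. All 3 Prox1-cKO libraries were below the lowest WT library, and WT replicate 1 was well above the other WT libraries. Krt19 thus fell by 1.79 on the log2 scale (standard error 0.434, adjusted p = 0.0160). It did not pass without Prox1-cKO replicate 1 (adjusted p = 0.0543), and limma on log2(CPM + 1) gave −1.18.

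Krt7, the type II keratin that pairs with Krt19 in duct cells, was 3.40, 1.26 and 2.03 CPM in WT and 0.687, 1.15 and 1.06 CPM in Prox1-cKO. The groups did not overlap, but WT replicate 2 lay just above Prox1-cKO replicate 2. Its log2 fold change of −1.20 (standard error 0.419) did not pass in edgeR (adjusted p = 0.0589), although it passed without WT replicate 2 (0.0308), with no filter (0.0398), with DESeq2 (0.0446) and with library totals alone (0.0173). Without WT replicate 1, the highest library, it was −0.75 (0.207), and with limma on log2(CPM + 1) −0.67 (0.0698).

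Krt23, an acidic keratin that is also found in stressed livers, was 9.04, 7.36 and 9.15 CPM in WT and 6.62, 13.2 and 12.2 CPM in Prox1-cKO. Prox1-cKO replicates 2 and 3 were above all of WT and replicate 1 was below all of it. The test did not pass (log2 fold change 0.33, standard error 0.260, adjusted p = 0.363). This value turned to −0.07 with library totals alone, a scaling that moved the median over all genes from −0.02 to −0.43. Leaving out Prox1-cKO replicate 1 gave 0.59 (adjusted p = 0.0573) and leaving out Prox1-cKO replicate 2 gave 0.16 (0.717), and it did not pass in any setting.

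Krt23 and Krt19 are both on chromosome 11, from 99477974 to 99493137 and from 100140810 to 100148665, 647.7 kb apart in the cluster of type I keratins. Within a library, Krt23 had 1.59, 2.36 and 3.40 reads per Krt19 read in WT and 6.24, 8.07 and 20.6 in Prox1-cKO. The 2 groups did not overlap, the mean log2 ratio differed by 2.11, and the exact permutation p was 0.1 (0.225 adjusted over the 9 ratios). The lowest Krt19 count, 10 reads in Prox1-cKO replicate 3, gives the highest of these ratios.

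The hepatocyte keratins Krt8 and Krt18 fell as well, by 1.02 and 1.16 on the log2 scale (adjusted p = 0.0151 and 0.00824), the call of Krt8 being lost without Prox1-cKO replicate 1 or 2 (adjusted p = 0.0586 and 0.0566). Krt19 had 0.0122, 0.00909 and 0.00918 reads per Krt18 read in WT and 0.00834, 0.0101 and 0.00291 in Prox1-cKO. These ranges overlap, with an exact permutation p of 0.4. Krt7 per Krt8 read overlapped as well (exact permutation p of 0.5), with a difference of −0.15 in the mean log2 ratio. Krt23 per Krt18 read was 0.0195, 0.0215 and 0.0312 in WT and 0.0520, 0.0816 and 0.0600 in Prox1-cKO, without overlap (exact permutation p of 0.1, or 0.225 adjusted over the 9 ratios).

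Keratins were counted where the symbol is Krt and a number, which leaves out symbols that end in a letter. Of these 25 keratin genes of the table, 13 on chromosome 11 and 12 on chromosome 15, only 7 passed the filter and the other 18 had no more than 50 reads in the 6 libraries together. Of these 7, 4 were called lower and the other 3 did not pass. Beside Krt8, Krt18 and Krt19 this was Krt80, with a log2 fold change of −2.87 on 77 reads, or −0.82 with limma on log2(CPM + 1). Krt10, Krt7 and Krt23 did not pass, and Krt10, looked at after its values were seen, had a log2 fold change of 0.71 (adjusted p = 0.124).

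**Figure D2:**
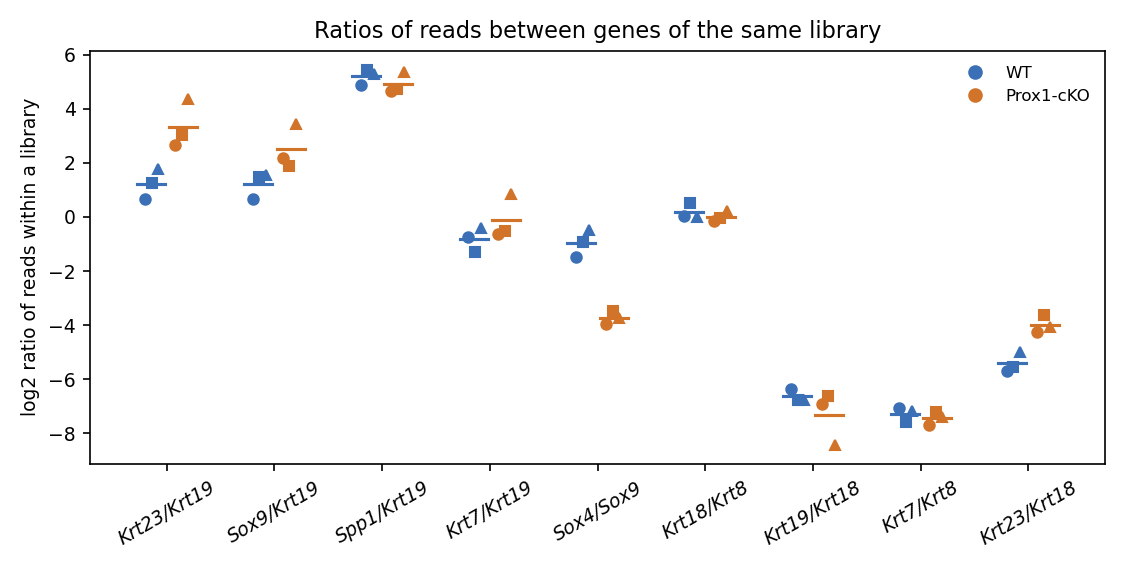
Log2 of the ratio of reads between 2 genes of the same library, for 9 pairs (blue, WT; orange, Prox1-cKO; circle, square and triangle for replicates 1, 2 and 3; lines, group means). The groups are apart for Krt23/Krt19, Sox9/Krt19, Sox4/Sox9 and Krt23/Krt18 and overlap for the other 5 pairs.

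Of the genes for surface proteins, Prom1 and Cd24a fell and Epcam did not pass, and their changes were not tested against each other. Prom1, which encodes the membrane protein CD133 of duct and progenitor cells, was 11.5, 5.72 and 4.88 CPM in WT and 0.937, 1.47 and 1.06 CPM in Prox1-cKO. WT replicate 1 was far above the other WT libraries, and the groups did not overlap. Prom1 fell by 2.66 on the log2 scale (standard error 0.392, adjusted p = 0.00229), and its log2 fold change was −1.88 with limma on log2(CPM + 1). The gene lies on chromosome 5 from 43993620 to 44102032, and 5.91% of its exonic bases are shared with Gm16401, which had no read.

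Cd24a, whose product is a small glycoprotein anchored in the membrane by a lipid, was 13.7, 10.1 and 7.62 CPM in WT and 2.69, 2.95 and 2.31 CPM in Prox1-cKO. The Prox1-cKO libraries were close to each other and all well below WT. For Cd24a the log2 fold change was −1.99 (standard error 0.255, adjusted p = 0.00137), a call kept in all 15 other settings. Cd24a is also made by B cells, granulocytes and red cell precursors. Of 10 tested genes of these cells, 3 were called lower, S100a8, S100a9 and Retnlg of granulocytes, and 1 higher, Alas2 of red cells. Over all genes tested, 20.2% were called lower and 14.1% higher. The call of Retnlg was lost in 10 of 14 other settings (adjusted p = 0.0602 to 0.148) and that of Alas2 in 5 of 15 (0.0517 to 0.0762). The median log2 fold change of the 10 genes was −1.11. The B cell genes Ms4a1 and Cd79a were at −1.38 and −1.05 with overlapping groups and did not pass (adjusted p = 0.0590 and 0.0899), but they did so in 6 of 14 and 2 of 15 other settings. The summed level over the 12 listed genes was 97.6 to 313 CPM in WT and 200.1 to 232 CPM in Prox1-cKO, which overlap, and most of it was Alas2 and the globin genes Hbb-bs and Hba-a1. Their part in the change of Cd24a was not tested.

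Epcam, a cell adhesion protein of bile duct epithelium, was 4.76, 3.58 and 1.63 CPM in WT and 2.12, 2.78 and 1.83 CPM in Prox1-cKO. WT replicate 3 was below all of Prox1-cKO, so the groups overlapped. Its log2 fold change was −0.57 with a standard error of 0.392 (adjusted p = 0.298) and did not pass, and it turned on single WT libraries, with −0.21 when WT replicate 1 was left out (adjusted p = 0.733) and −0.87 when WT replicate 3 was, where it passed (adjusted p = 0.0368). Prom2, the relative of Prom1, was at most 0.505 CPM and was not tested.

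Spp1 was by far the most abundant of the 9 genes. Its mRNA was at 166, 136 and 105 CPM in WT and 26.7, 43.6 and 24.1 CPM in Prox1-cKO. Every WT library was far above every Prox1-cKO library. Between genotypes it fell by 2.11 on the log2 scale (standard error 0.264, adjusted p = 0.00124), and the call was kept in all 15 other settings. Spp1 per Krt19 read was 29.2, 43.6 and 39.1 in WT and 25.1, 26.6 and 40.8 in Prox1-cKO, a difference of −0.29 in the mean log2 ratio with overlapping groups (exact permutation p of 0.3). The gene lies on chromosome 5 from 104435118 to 104441050, and 309 of its exonic bases (18.8%) are shared with Gm42793 on the same strand, so its reads there may have been left out of the count.

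Macrophages also make Spp1. Of 16 macrophage genes, 14 fell and the other 2 did not pass, while 20.2% of all genes tested were called lower and 14.1% higher. In some of the genes called lower the groups overlapped. The median log2 fold change of the 16 genes was −1.17, and their summed level was 848 to 1950 CPM in WT and 674 to 903 CPM in Prox1-cKO. Trem2, Itgax, Gpnmb and Cd9, genes of recruited and lipid-associated macrophages, had log2 fold changes of −3.37, −2.98, −3.79 and −1.94 and fell (−1.88, −2.30 and −1.68 for the first 3 with limma on log2(CPM + 1), and −3.05 for Gpnmb without WT replicate 1), while Clec4f of Kupffer cells was at −0.56 and did not pass (adjusted p = 0.171), except without WT replicate 3 (0.00422) and with library totals alone (0.0307). Adgre1, a general macrophage gene whose groups overlapped, was called lower at −1.15, and the call was lost without WT replicate 1 or 2 or Prox1-cKO replicate 2 or 3 (adjusted p = 0.0850 to 0.107). The part of these cells in the level of Spp1 was not tested.

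**Figure D3:**
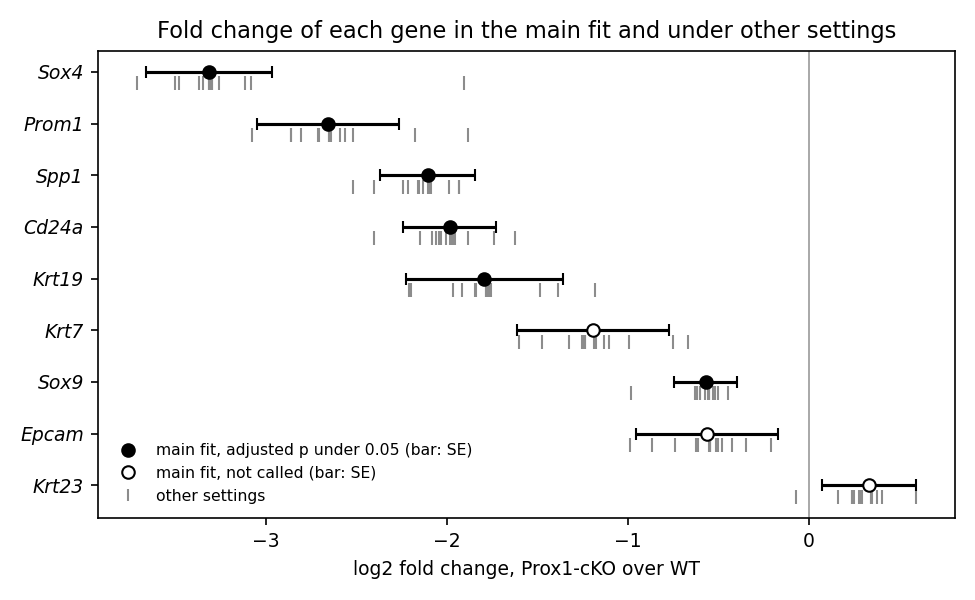
Log2 fold change of Prox1-cKO over WT for each of the 9 genes in the main edgeR fit (circle, filled where the adjusted p was under 0.05; bar, standard error), with grey ticks for the same value under the other settings, among them other scalings, filters and tools and each library left out. From Sox4 to Epcam all ticks are below 0, while for Krt23 1 tick, library totals alone, is below 0 and the others are above.

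The order of the genes by level changed between the genotypes. Per kilobase of exon, the mean WT level in CPM was 82.3 for Spp1, 5.44 for Krt23, 4.07 for Cd24a, 2.07 for Sox9 and for Krt19, 1.51 for Epcam, 1.03 for Prom1, 0.939 for Sox4 and 0.316 for Krt7. The ranges of the 3 libraries overlapped between Krt23 and Cd24a and between each neighbour from Sox9 to Sox4, and they were apart below Spp1, below Cd24a and above Krt7. In Prox1-cKO the order was Spp1 (19.1), Krt23 (6.82), Sox9 (1.39), Cd24a (1.03), Epcam (1.02), Krt19 (0.591), Prom1 (0.161), Krt7 (0.137) and Sox4 (0.0926 CPM per kilobase). Here the first 4 were apart from each other, Cd24a overlapped with Epcam, Epcam with Krt19, and Prom1 to Sox4 each with the next. Sox4 was thus above Krt7 in WT and last in Prox1-cKO, where Sox9 stood above Cd24a and not below it. The exon length is the union over all annotated transcripts, so the order depends on this divisor. For Sox4, 54.6% of it is shared with Gm26735, where reads may have been left out or may come from either gene. In CPM alone, Sox4 was also above Krt7 in WT (4.50 against 2.23) and below it in Prox1-cKO (0.444 against 0.966).

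The libraries of 1 genotype also differed from each other in the same direction for most of the 9 genes. In WT, replicate 1 had the highest level for 7 genes and replicate 3 the lowest for 6, and in Prox1-cKO, replicate 2 had the highest level for 8. Sox4 ran the other way in WT, with its highest level in replicate 3. Over the 19 other bile duct genes that were tested, WT replicate 1 was the highest WT library for 10, WT replicate 3 the lowest for 12 and Prox1-cKO replicate 2 the highest of its group for 12.

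By a fixed rule, the genes most like the mean standardised level of the 9 genes over the 6 libraries were Rras, a small GTPase (Pearson r of 0.991), Myl12a and Myh14, a light and a heavy chain of nonmuscle myosin (0.990 and 0.986), Tcof1, a factor of ribosomal RNA synthesis (0.987), and Gtf3c6, a subunit of transcription factor TFIIIC (0.986). Since the 6 libraries fall into 2 genotypes, 162 of the 10620 genes compared reached 0.95, and these values are a description only. Rras was 37.3, 27.5 and 24.9 CPM in WT and 14.1, 21.8 and 16.6 CPM in Prox1-cKO, which has the same highest library in each group as most of the 9 genes, and its log2 fold change of −0.77 lost its call without WT replicate 1 or Prox1-cKO replicate 1 or 3 (adjusted p = 0.0753, 0.0807 and 0.0773).

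Most other bile duct genes tested fell too. Of 25 listed genes outside the 9, 19 were tested, of which 15 fell and 4 did not pass, with a median log2 fold change of −1.92. Over all genes tested, 20.2% were called lower and 14.1% higher. The 4, looked at after their values were seen, included Pkhd1, with means of 9.87 CPM in WT and 8.90 CPM in Prox1-cKO. Its log2 fold change was −0.15 (adjusted p = 0.756 in edgeR). Slc4a2, Clu and Atp1b1 were at −0.17, 0.06 and 0.22 (0.333, 0.815 and 0.480). Dmbt1, a secreted mucosal glycoprotein of ducts, was 7.19, 3.54 and 1.47 CPM in WT and had 1 read in Prox1-cKO. Its fitted log2 fold change of −7.30 depends on that read (−6.59 without WT replicate 1, −9.37 with Prox1-cKO replicate 1 left out and −2.15 in limma on log2(CPM + 1)). Tff3, a trefoil peptide that protects mucosa, fell from 71.4, 83.3 and 23.3 CPM to 2.06, 1.20 and 0.296 CPM, a log2 fold change of −5.65 (−4.68 in limma on log2(CPM + 1) and −6.26 without Prox1-cKO replicate 1). Ddr1, a collagen receptor kinase, and Cdh1, the epithelial cadherin, fell, with log2 fold changes of −4.56 and −2.59, and both are also found in other epithelial cells. Ehf, an ETS factor of epithelia, had a log2 fold change of −1.87 and Pdzk1ip1 of −1.99 (−1.23 and −1.30 with limma on log2(CPM + 1)), and both fell.

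Cftr, the chloride channel of duct cells, was at 0.102 to 0.794 CPM in WT and 0.177 to 0.273 CPM in Prox1-cKO and was too low to be tested.

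Most genes of progenitors and hepatoblasts did not pass. Of 20 listed genes, 12 were tested, of which 3 fell, 1 rose and 8 did not pass. The log2 fold change was negative for 10 of the 12, with a median of −0.74. These counts lie near the shares over all genes tested, 20.2% called lower and 14.1% higher. Gpc3, a glypican of fetal liver, and Cd44, a hyaluronan receptor, fell, with log2 fold changes of −6.92 and −1.54 (Gpc3 −4.89 with limma on log2(CPM + 1)). Tnfrsf12a, the receptor through which TWEAK drives progenitor growth, fell by 1.20, a call lost without WT replicate 1 or Prox1-cKO replicate 1 or 2 (adjusted p = 0.0937, 0.104 and 0.113) and with the replicate number as a block (0.0509). Lgr5, a Wnt target found in pericentral hepatocytes and in progenitors, was 0.485, 0.337 and 0.661 CPM in WT and 2.94, 2.95 and 2.07 CPM in Prox1-cKO and so rose, with a log2 fold change of 2.42 (1.28 with limma on log2(CPM + 1)). Afp, the fetal serum protein, was 10.1, 4.42 and 2.79 CPM in WT and 2.75, 0.819 and 1.95 CPM in Prox1-cKO, and its log2 fold change of −1.66 did not pass (adjusted p = 0.0513), while it passed in 8 of 15 other settings and was −0.98 without WT replicate 1. Igf2bp3 and Alcam did not pass either (adjusted p = 0.0512 and 0.0504) but did so in 6 of 14 and 8 of 15 other settings.

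Of the signals that feed the biliary fate, 25 genes of the Notch, YAP and TGF-beta pathways were listed and 21 tested. Of these, 10 fell and 2 rose, with a median log2 fold change of −0.49. Over all genes tested, 20.2% were called lower and 14.1% higher. Tgfb2 and Tgfb1, ligands, and Tgfbr2, their receptor, fell, with log2 fold changes of −3.07, −1.32 and −1.79 (Tgfb2 −1.65 with limma on log2(CPM + 1)). Heyl, a Notch target, fell, with a log2 fold change of −2.47 (−1.78 with limma), as did the Notch ligand gene Jag1, central to bile duct formation, with −0.81, which lost its call without WT replicate 1 or Prox1-cKO replicate 1 or 2 (adjusted p = 0.0548, 0.0796 and 0.0689). The receptor Notch2 was at −0.11 and its target Hes1 at −0.47, and neither passed (adjusted p = 0.491 and 0.238), though both did with library totals alone (0.00712 and 0.0437). Yap1 was called higher with a log2 fold change of 0.50, a call that was lost with library totals alone (0.588) and without WT replicate 1 or 2 or Prox1-cKO replicate 2 or 3 (0.0751 to 0.0942), whereas Tead1, the factor it binds, and Cyr61, a target of both, fell, with −0.92 and −1.73. Ctgf, another target of both, which was chosen after its values were seen, moved the other way, from 6.31, 7.70 and 7.01 CPM in WT to 11, 15.7 and 8.81 CPM in Prox1-cKO. It was called higher with a log2 fold change of 0.76 (adjusted p = 0.0354), a call lost in 6 of 15 other settings (0.0511 to 0.268), among them without WT replicate 1 or 2 or Prox1-cKO replicate 1 or 2.

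Markers of some other cells fell with these genes, while those of hepatocytes mostly rose and those of endothelial cells mostly did not pass. The shares over all genes tested, for comparison, were 20.2% called lower and 14.1% higher. Of 16 hepatocyte genes, 10 rose and 1 fell, with a median log2 fold change of 1.10, such as Ttr (1.32) and Hnf4a, a hepatocyte transcription factor (0.93, a call lost without WT replicate 1 or 2, without Prox1-cKO replicate 3 and with library totals alone, adjusted p = 0.0531 to 0.0666), while Alb was at 0.50 and did not pass (adjusted p = 0.254, or 0.0164 with DESeq2). Genes of dividing cells, 14 of 16 of which fell, had a median of −2.85 and summed levels of 165 to 332 CPM in WT and 62.1 to 70.2 CPM in Prox1-cKO, and Mki67 fell by 2.81. Stellate cell and fibroblast genes fell in 8 of 13 and had a median of −1.06, and Col1a1 fell by 3.37. Endothelial genes were called lower in 2 of 12, with a median of −0.14, and 1 of these, Fcgr2b, lost its call in 9 of 15 other settings (adjusted p = 0.0563 to 0.140). The part of these cells, and of the lower number of genes with a read in Prox1-cKO, in the levels of the 9 genes was not tested.

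**Figure D4:**
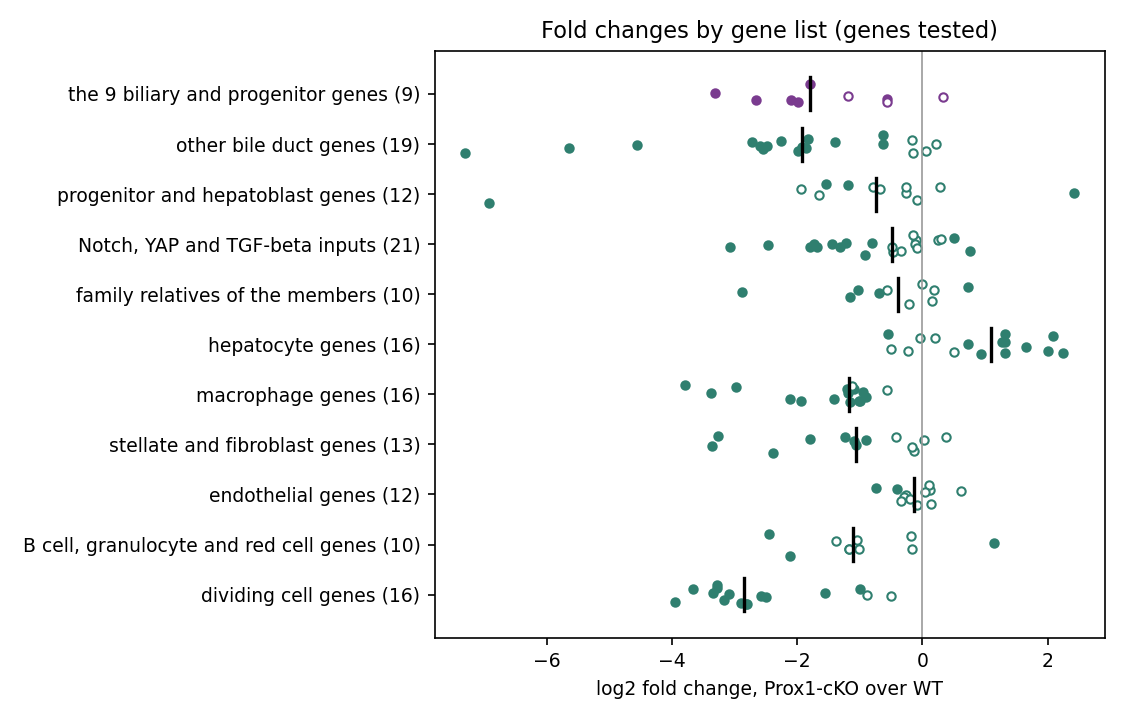
Log2 fold change of Prox1-cKO over WT for the genes tested in each list (number in brackets), with filled points for genes called at an adjusted p under 0.05 in edgeR, open points for genes not called and a black line at the median. The medians of the 9 genes and of the other bile duct genes are −1.79 and −1.92, that of genes of dividing cells −2.85 and that of hepatocyte genes 1.10.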

How the data were processed

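The authors deposited whole read counts per gene for 6 liver libraries, made with HISAT2 2.1.0 and HTSeq per the labels of the submission, which also name DESeq and GRCh38, a human build, although the identifiers are mouse ones. The annotation release, strand setting and filters: not given in the sources used here. mRNA was enriched with oligo(dT) beads and reverse transcribed with random primers. A second deposited table of the same libraries was not used, and no column of the count table was left out. The libraries were taken as separate animals, and p-values cover only the spread between them.

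Counts were tested in R 4.3.3 with edgeR 4.0.16 (filterByExpr, TMM, quasi-likelihood test, genotype as the only term) over all 14843 genes that passed the filter, with Benjamini-Hochberg adjustment and calls at an adjusted p under 0.05. The standard error is the log2 fold change divided by the square root of the F statistic. Alternatives were RLE or upper quartile scaling, library totals, no filter other than 1 count, a minimum of 10 counts per library, a replicate block, DESeq2 1.42.0, limma 3.58.1 on log2(CPM + 1), a minimum of 2-fold and each library left out. An offset for transcript length and GC content, known for 14833 of the genes, was added after the data were seen. The edgeR, DESeq2 and limma fits were run on simulated data, with changes put only into genes above a minimum mean count. The outcome is not reported here, and it is no support for the calls of genes with few reads. Exact permutation tests of 3 against 3 libraries cannot give a p below 0.1.

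The 9 genes, the gene lists and the alternatives were chosen with earlier results of these data known, and nothing here is independent support for them. Genes named from each list were up to 6 with the lowest p and a fixed set of further markers, of which some are not reported here. Ccn1, Ccn2 and Tf were matched under older or other names, and 4 bone matrix relatives of Spp1 were not matched. Gene positions and exon lengths are from GENCODE M21 on GRCm38. Python 3.11.15 and matplotlib 3.10.9 drew the figures.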

Additional observations from a re-analysis of the deposited data

How the results depend on the processing

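The number of the 9 genes called lower was 5 to 7 under the settings that kept all libraries and 4 to 7 when 1 library was left out, and none was called higher in any setting. It was 4 without Prox1-cKO replicate 1 and 7 without WT replicate 3, with DESeq2 and with library totals alone, and 5 with at least 10 counts in every library, a filter that Sox4 did not pass. The calls of Spp1, Cd24a and Prom1 were the same in all 15 settings and that of Sox4 in the 14 that tested it. The log2 fold change of Krt23 reversed, to −0.07181, with library totals alone, which lowered the median over all genes from −0.02 to −0.43. That scaling gave 725 genes called higher, against 2087, and 6060 called lower, against 2999, and a minimum of 2-fold gave 735 called higher. With 1 library left out, 1201 to 2604 genes were called higher and 1999 to 3468 lower, the fewest without Prox1-cKO replicate 2 and the most without WT replicate 3, and leaving out WT replicate 1 or 2 gave 1260 or 1301 called higher. With the replicate number as a block, 5 of the 9 genes were called lower (Sox9 was not, adjusted p = 0.0613), and 2988 of all genes lower and 2029 higher. The numbers were not taken to pair the animals, because the labels do not say that they do. However, the deviations of same-numbered libraries from their group means correlated at 0.176, 0.0833 and 0.169, against −0.174 to 0.0542 for the other pairs. Each library thus correlated best with its own number. With 5 to 30 reads per Prox1-cKO library for Sox4, Krt19, Krt7 and Prom1, counting error alone is large in these levels.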
